A study of Homo sapiens with 16 samples.

Results

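The 35 genes described here encode tRNA synthetases, the enzymes that load each amino acid onto its tRNA. They are the protein-coding genes of a fixed list of names, and each is present in both processed expression tables, which hold 60560 genes each. They were split by name into 16 mitochondrial enzymes, whose names end in RS2, and 19 cytosolic enzymes, which are all the others. RNA sequencing was performed in 2 established human colorectal cancer (CRC) cell lines, SW480 and HCT116, each treated for 16 h with curcumin, a compound of turmeric, or with andrographis, a plant extract, or left as non-treated controls. Each compound had its own experiment of 8 libraries with its own controls, so that 16 libraries formed 8 groups of 2. SW480 cells received 3 µg/mL curcumin or 30 µg/mL andrographis and HCT116 cells 2.4 µg/mL curcumin or 24 µg/mL andrographis, by the general statement on concentrations, since the sequencing labels name none. All groups were single lines grown as monocultures, and the labels do not tell whether the paired libraries of 1 group are separate cultures. The p-values cover the spread between libraries alone, which may be technical.

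Each synthetase recognizes its own amino acid, and the loaded tRNA is then used by the ribosome. Human cells keep separate enzymes for the cytosol and for the mitochondrion, most of them encoded by separate nuclear genes, while GARS1 (glycyl-tRNA synthetase) and KARS1 (lysyl-tRNA synthetase) serve both compartments from the same gene. Several cytosolic enzymes sit in the multisynthetase complex (EPRS1, IARS1, KARS1, LARS1, MARS1, QARS1 and RARS1), and the others are free. Many cytosolic synthetase genes are known targets of ATF4, the transcription factor of the integrated stress response, which binds C/EBP-ATF response elements. WARS1 (tryptophanyl-tRNA synthetase) is also known as an interferon gamma target.

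The promoters were read first for that element. RefSeq windows of GRCh38.p14, from 250 bases before to 50 bases after each annotated start, were given for 30 of the 35 genes (not for LARS1, VARS1, YARS1, AARS2 and VARS2) and were searched on both strands. TGATGNAA was present in 7 of 16 cytosolic genes with a window (43.8%), against 1 of 14 mitochondrial genes (7.14%) and 3.6% of 15843 protein-coding genes. Its strict form TGATGCAA, which is contained in the first, was present in 6 of 16 cytosolic genes and 0 of 14 mitochondrial genes, against 0.903% of protein-coding genes. Both forms were more frequent in the cytosolic class, although most cytosolic genes with a window lack them. The stretches that hold TGATGNAA are printed for that reason, each on the strand of its gene, 5′ to 3′, with the matched letters in capitals (TTGCATCA and TTTCATCA are matches on the opposite strand):
AARS1, chr16:70289661-70289718, minus strand: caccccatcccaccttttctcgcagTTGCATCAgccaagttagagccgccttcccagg
CARS1, chr11:3057394-3057450, minus strand: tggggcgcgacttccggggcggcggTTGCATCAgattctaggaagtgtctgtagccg
GARS1, chr7:30594820-30594877, plus strand: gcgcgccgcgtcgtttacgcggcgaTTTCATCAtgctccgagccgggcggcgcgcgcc
IARS1, chr9:92293678-92293735, minus strand: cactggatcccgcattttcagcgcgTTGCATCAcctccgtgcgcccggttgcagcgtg
MARS1, chr12:57488039-57488096, plus strand: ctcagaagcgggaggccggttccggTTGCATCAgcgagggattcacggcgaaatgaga
NARS1, chr18:57621807-57621847, minus strand: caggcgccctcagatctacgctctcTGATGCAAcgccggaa
TARS1, chr5:33440942-33440994, plus strand: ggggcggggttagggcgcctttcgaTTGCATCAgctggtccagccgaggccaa
YARS2, chr12:32756062-32756119, minus strand: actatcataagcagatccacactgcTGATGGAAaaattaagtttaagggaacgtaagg

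Counted from the first transcribed base as position 1, with no position 0, the match began at -187 in AARS1, -33 in GARS1, -13 in IARS1, -4 in MARS1, -2 in CARS1, 3 in TARS1, 15 in NARS1 and -197 in YARS2. It therefore lay close to the start in 6 of the 7 cytosolic genes and further upstream in AARS1 and in the mitochondrial YARS2. The other motifs searched did not differ between the classes in the same way. The antioxidant response element TGACNNNGC was found in 4 of 16 cytosolic (GARS1, KARS1, TARS1 and WARS1) and 2 of 14 mitochondrial genes (NARS2 and RARS2), against 17.9% of protein-coding genes. The E-box CACGTG was found in 1 of 16 cytosolic genes (IARS1) and 3 of 14 mitochondrial genes (CARS2, EARS2 and MARS2), against 10.9%. The core of the nuclear respiratory factor 1 site, GCATGCGC, was found in 0 of 16 cytosolic and 2 of 14 mitochondrial genes (MARS2 and YARS2), against 4.89%. These matches are a description of letters, not of binding.

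HARS1 and HARS2, the cytosolic and mitochondrial histidyl enzymes, are transcribed away from each other on chromosome 5, with 84 bases between their starts. The interval is printed because 1 short stretch lies between members of both classes, on the plus strand, with the first base of HARS1 (at its left end) and the first base of HARS2 (at its right end) in capitals:
HARS1 to HARS2, chr5:140691370-140691455: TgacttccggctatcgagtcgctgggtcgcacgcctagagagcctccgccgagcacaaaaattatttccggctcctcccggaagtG

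The tables hold log2(value + 1), and the values are called FPKM here from the steps they take. These steps gave an approximate depth of 9.37 to 23.05 M (megareads) per library in the curcumin experiment and 15.64 to 32.16 M in the andrographis experiment. Mitochondrially encoded genes took 35.8% to 41.8% of the summed FPKM in curcumin experiment libraries and 0.0395% to 0.0853% in andrographis experiment libraries, so levels were compared only within an experiment. Columns of the andrographis experiment are marked A or D, taken here to mean andrographis and control, and this reading sets the direction of each andrographis change. Of the epithelial markers, 6 of 8 were at 1 FPKM or more in every library, with KRT20 listed at 0 in every library of both tables, while the 6 immune markers summed to at most 1.68 FPKM and the 7 stromal and endothelial markers to at most 15.5 FPKM in any library. With bulk RNA, fewer cells and less RNA per cell cannot be told apart.

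Of the 35 genes, 32 were tested in the curcumin experiment (17 cytosolic and 15 mitochondrial) and 33 in the andrographis experiment (18 and 15), a gene being tested if at least 2 libraries of its experiment reached 1 FPKM. VARS1 and VARS2, the valyl enzymes, were listed at or near 0 in all libraries (at most 0.0258 FPKM). Every cell uses the valyl enzymes, so such a value can be a failed estimate and is not read as absence. CARS1, the cytosolic cysteinyl enzyme, was at 0.295 to 0.548 FPKM in the curcumin experiment. Among the tested genes, cytosolic enzymes were the more abundant class. In the curcumin experiment their median group mean was 41.1 FPKM in curcumin-treated and 34.1 FPKM in control SW480 cells, and 43.8 and 43.1 FPKM in curcumin-treated and control HCT116 cells. For mitochondrial enzymes these medians were 5.22 and 5.44 FPKM in SW480 and 5.59 and 5.71 FPKM in HCT116 cells. In control cells of this experiment the cytosolic enzyme of an amino acid was higher than its mitochondrial counterpart in 10 of 11 pairs tested in either line, by a median of 3.51-fold in SW480 and 5.70-fold in HCT116 cells. The exception in that experiment was the histidyl pair, with a cytosolic to mitochondrial ratio of 0.816 in SW480 and 0.483 in HCT116 cells. In controls of the andrographis experiment the histidyl ratio was 1.20 in SW480 and 0.625 in HCT116 cells, and the cysteinyl pair, with the variable CARS1, was at 0.858 and 0.418.

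Curcumin in SW480 cells was followed by small upward differences across the cytosolic class. GARS1 rose, and it was the only one of the 32 genes to pass an adjusted p < 0.05 (limma, Benjamini-Hochberg over all 16341 genes tested). A further set of cytosolic genes lay above the controls without passing, and the mitochondrial class was spread around 0. GARS1 was at 41.1 and 41.1 FPKM with curcumin, against 32.1 and 31.7 FPKM in controls, and its log2 fold change was 0.36 ± 0.04 (SE; adjusted p = 0.0454), a 1.29-fold difference. The 2 curcumin libraries differed from each other by far less than from the controls. The call was at the edge of the threshold: with libraries scaled to the same median the adjusted p was 0.0623, with no filter 0.0582, and with any 1 of the 4 SW480 libraries left out it was 0.216 to 0.453. WARS1, with the largest positive difference of the tested genes of both classes, was at 71.2 and 72.7 FPKM with curcumin, against 53.2 and 53.8 FPKM in controls (log2 fold change 0.42 ± 0.07 SE, adjusted p = 0.0833). The groups did not overlap, and the difference missed the adjusted threshold.

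At the level of the class, 15 of 17 cytosolic genes had a positive log2 fold change in SW480 cells, with a median of 0.18 against a median of -0.02 over all genes tested. Both curcumin libraries were above both controls in 14 of 17 cytosolic genes, against 18.5% of all genes tested, and both were below in 1 of 17, against 27.8%. The adjusted threshold was passed by 1 of 17, against 0.306% of all genes in either direction. Counting rises alone, 1 of 17 passed, against 0.129%. At an unadjusted p < 0.05, 11 of 17 passed, all upward, against 12.2% of all genes in either direction and 4.88% upward. The threshold of the methods (unadjusted p < 0.05 and an absolute log2 fold change above 0.5) was passed by 0 of 17 and by 1.95% of all genes. No cytosolic gene reached that fold. The 2 genes below 0 were QARS1 and FARSA. QARS1 (glutaminyl-tRNA synthetase) was at 29.1 and 31.2 FPKM with curcumin, against 33.4 and 33.9 FPKM in controls (log2 fold change -0.15 ± 0.07 SE, adjusted p = 0.467). FARSA, the alpha subunit of phenylalanyl-tRNA synthetase, was at 19.3 and 24.4 FPKM with curcumin, against 24.1 and 22.9 FPKM in controls, and these groups overlapped. FARSB, the beta subunit of the same enzyme, had a log2 fold change of 0.25 against -0.11 for FARSA.

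Of the mitochondrial class, 9 of 15 genes had a positive log2 fold change in curcumin-treated SW480 cells, the median was 0.01, and 0 of 15 passed the adjusted threshold. At an unadjusted p < 0.05, 2 of 15 passed, both upward, against 12.2% of all genes in either direction and 4.88% upward. Curcumin libraries were both above controls in 4 of 15, against 18.5% of all genes, and both below in 3 of 15, against 27.8%. AARS2, the mitochondrial alanyl enzyme, was at 5.09 and 4.71 FPKM with curcumin, against 3.80 and 4.13 FPKM in controls (log2 fold change 0.25 ± 0.10 SE, adjusted p = 0.395). TARS2, the threonyl enzyme, was at 7.98 and 7.72 FPKM with curcumin, against 6.62 and 6.79 FPKM in controls (0.20 ± 0.05 SE, adjusted p = 0.206). These were the only 2 mitochondrial genes at an unadjusted p < 0.05, and their groups did not overlap. At the low end, PARS2, the prolyl enzyme, was at 3.88 and 4.76 FPKM with curcumin, against 4.88 and 4.76 FPKM in controls. IARS2, the isoleucyl enzyme and the most abundant of the class, was at 47.5 and 43.9 FPKM with curcumin, against 49.5 and 49.2 FPKM in controls. Neither PARS2 nor IARS2 passed any threshold (adjusted p = 0.744 and 0.566).

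**Figure D1:**
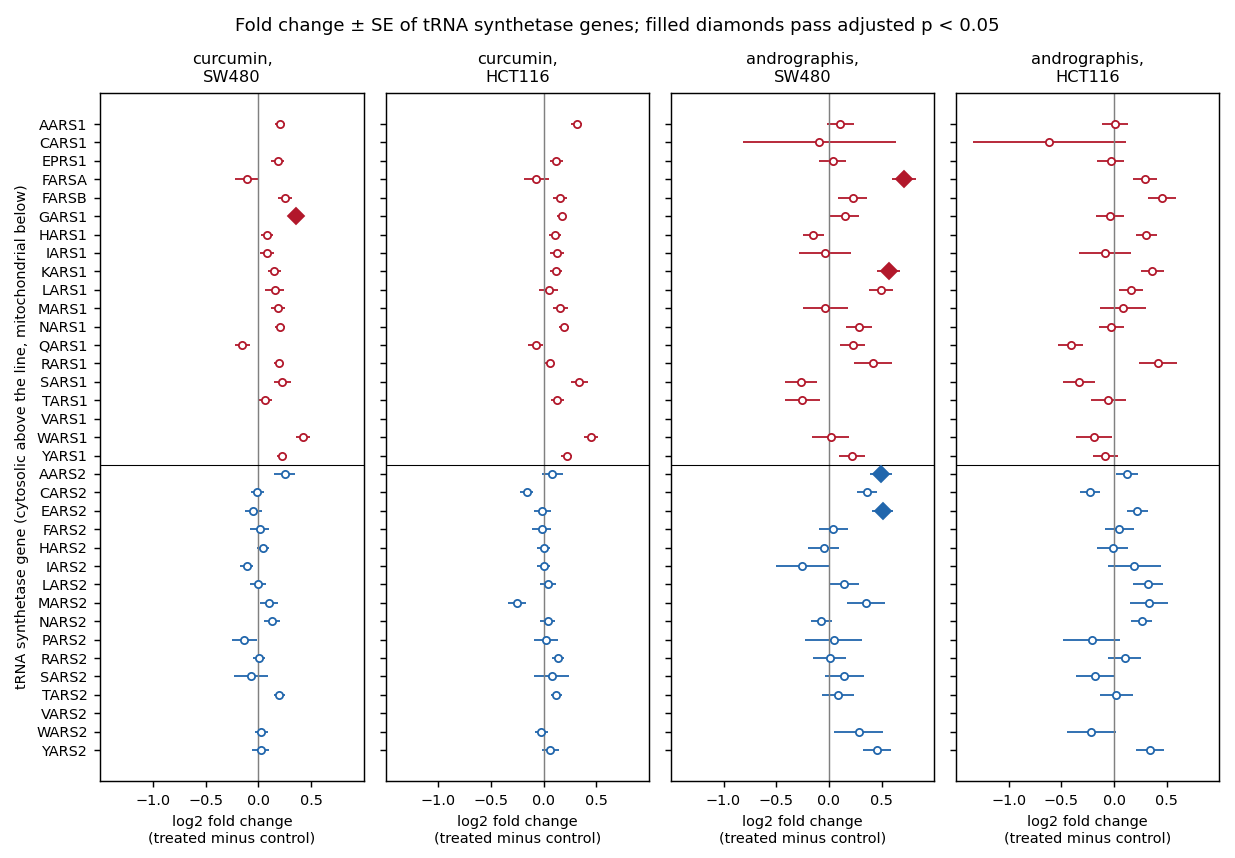
Log2 fold change (treated minus control, x axis) ± SE of each tested tRNA synthetase gene (y axis, cytosolic in red above the line, mitochondrial in blue below) in the 4 comparisons, with n = 2 libraries per group. With curcumin 15 of 17 cytosolic genes lie right of 0 in each line, while filled diamonds, which pass an adjusted p < 0.05, mark GARS1 with curcumin and FARSA, KARS1, AARS2 and EARS2 with andrographis, all in SW480 cells.

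In HCT116 cells treated with curcumin, 15 of 17 cytosolic genes again had a positive log2 fold change, with a median of 0.13 against -0.005 over all genes tested. None of the 17 passed the adjusted threshold, against 0.171% of all genes. At an unadjusted p < 0.05, 6 of 17 passed, all upward, against 11.8% of all genes in either direction and 5.96% upward, and the threshold of the methods was passed by 0 of 17, against 1.85% of all genes. Both curcumin libraries were above both controls in 14 of 17, against 18.3% of all genes, and both below in 0 of 17, against 19.1%. WARS1 was at 22.5 and 23.5 FPKM with curcumin, against 15.6 and 17.7 FPKM in controls (log2 fold change 0.45 ± 0.07 SE, adjusted p = 0.1). SARS1, the seryl enzyme, was at 76.0 and 83.4 FPKM with curcumin, against 59.0 and 66.8 FPKM in controls (0.34 ± 0.08 SE, adjusted p = 0.203). In both genes the lower curcumin library was above the higher control. QARS1 was at 42.8 and 42.9 FPKM with curcumin, against 42.5 and 48.2 FPKM in controls, and FARSA was at 24.8 and 23.96 FPKM, against 23.9 and 27.5 FPKM. Both genes overlapped between groups, and the sign of both turned when control library 2 was left out.

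Of the mitochondrial class in curcumin-treated HCT116 cells, 9 of 15 genes were positive, with a median of 0.02, and 0 of 15 passed the adjusted threshold. At an unadjusted p < 0.05, 3 of 15 passed, 1 of them upward, against 11.8% of all genes in either direction and 5.96% upward. RARS2, the arginyl enzyme, was at 16.5 and 17.4 FPKM with curcumin, against 15.5 and 15.1 FPKM in controls (0.14 ± 0.06 SE, adjusted p = 0.416). TARS2 was at 6.47 and 6.13 FPKM with curcumin, against 5.69 and 5.73 FPKM in controls. It was the only mitochondrial gene with both curcumin libraries above both controls in both lines, while 13 cytosolic genes were. The share of all genes above controls in both lines at once was not counted. In single lines it was 18.5% in SW480 and 18.3% in HCT116 cells. MARS2, the methionyl enzyme, was at 5.82 and 5.36 FPKM with curcumin, against 6.41 and 7.34 FPKM in controls (-0.26 ± 0.09 SE, adjusted p = 0.319). CARS2, the cysteinyl enzyme, was at 3.35 and 3.28 FPKM with curcumin, against 3.93 and 3.73 FPKM in controls (-0.16 ± 0.06 SE, adjusted p = 0.391). Both were lower in each curcumin library, without passing the test.

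The difference between the class medians of the log2 fold changes, cytosolic minus mitochondrial, was 0.17 in SW480 and 0.11 in HCT116 cells with curcumin. A related class difference was taken for each library against the mean of the controls. It was 0.144 and 0.145 in curcumin-treated SW480 cells and 0.136 and 0.0992 in curcumin-treated HCT116 cells. Within groups it had an SD of 0.007 in SW480 and 0.04 in HCT116 cells. With 1 library left out, the difference of class medians ran from 0.14 to 0.20 in SW480 and from 0.10 to 0.14 in HCT116 cells. Set against the mean of the controls, the cytosolic median of each library was shifted by 0.17 and 0.19 in curcumin-treated SW480 cells, against -0.006 and 0.006 in controls, and by 0.17 and 0.14 in curcumin-treated HCT116 cells, against -0.04 and 0.04 in controls. The mitochondrial median was shifted by 0.03 and 0.05 in curcumin-treated SW480 cells, against -0.01 and 0.01 in controls, and by 0.04 and 0.04 in curcumin-treated HCT116 cells, against -0.002 and 0.002 in controls. Summed over the class, cytosolic enzymes were at 847 ± 19.1 FPKM with curcumin and 753 ± 1.17 FPKM in control SW480 cells, and at 884 ± 14.8 and 792 ± 31.7 FPKM in HCT116 cells (SD, n = 2 each). Mitochondrial sums were 151 ± 1.35 FPKM with curcumin and 151 ± 0.368 FPKM in control SW480 cells, and 145 ± 2.63 and 143 ± 2.06 FPKM in HCT116 cells. The members are not replicates of a condition, and no test was made on a class as a whole.

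**Figure D2:**
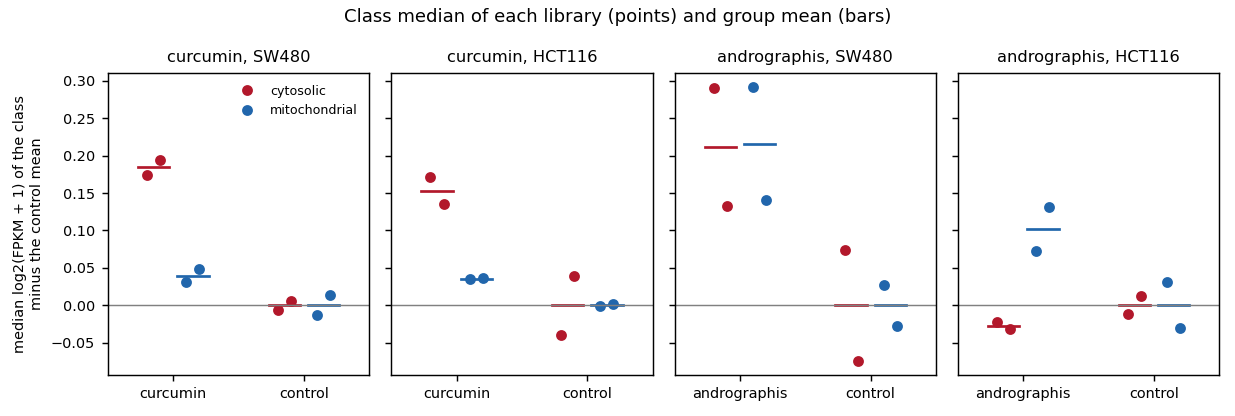
Median log2(FPKM + 1) of the cytosolic (red) and mitochondrial (blue) genes in each library, minus the mean of the 2 control libraries (y axis), with treated libraries left of controls and a bar at each group mean. With curcumin the cytosolic points lie at 0.14 to 0.19 and the mitochondrial points at 0.03 to 0.05, while with andrographis in HCT116 cells the cytosolic points lie at -0.02 and -0.03, below the mitochondrial points at 0.07 and 0.13.

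Within the cytosolic class, the genes commonly listed as ATF4 targets were all positive with curcumin, 11 of 11 tested in each line. Their medians were 0.21 in SW480 and 0.17 in HCT116 cells. In each line 10 of 11 were above both controls, against 18.5% of all genes in SW480 and 18.3% in HCT116 cells. Of the 6 cytosolic genes not so listed (FARSA, FARSB, HARS1, KARS1, QARS1 and RARS1), 4 were positive in each line, with medians of 0.12 and 0.08. By the printed element, the 6 tested genes that hold it had medians of 0.19 in SW480 and 0.17 in HCT116 cells, and the 9 without it had medians of 0.18 and 0.12. Of genes with the element, 6 of 6 were positive in each line, and of those without it 7 of 9. Both curcumin libraries were above both controls in 5 of 6 and 7 of 9 in SW480 cells, against the 18.5% of all genes. In HCT116 cells this held for 6 of 6 and 7 of 9, against the 18.3% of all genes. WARS1, the gene with the largest positive difference in both lines, holds no match in its window. Genes of the multisynthetase complex had medians of 0.16 and 0.12 and the tested free enzymes medians of 0.22 and 0.18. The list of ATF4 targets was taken from general knowledge, with earlier results of these data known.

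The other genes of the ATF4 stress response were read for the same libraries, without the synthetases. Of 19 tested genes, 17 in SW480 and 16 in HCT116 cells were positive with curcumin, with medians of 0.28 and 0.27, and 2 and 1 passed the adjusted threshold upward, against 0.129% and 0.104% of all genes. PPP1R15A, a phosphatase subunit that reverses the stress block on translation, rose to 77.2 and 72.1 FPKM in curcumin-treated SW480 cells, against 40.6 and 38.9 FPKM in controls (log2 fold change 0.89 ± 0.07 SE, adjusted p = 0.0251). In HCT116 cells it rose to 42.3 and 44.4 FPKM, against 25.9 and 28.1 FPKM in controls (0.66 ± 0.07 SE, adjusted p = 0.0446). DDIT3, which encodes the stress transcription factor CHOP, rose to 47.0 and 49.2 FPKM in curcumin-treated SW480 cells, against 25.4 and 27.2 FPKM in controls (0.85 ± 0.09 SE, adjusted p = 0.0338), and had a log2 fold change of 0.50 in HCT116 cells (adjusted p = 0.136). ATF4 itself had log2 fold changes of 0.24 and 0.27 and TRIB3, a pseudokinase induced by CHOP, 0.68 and 0.50, without passing. ASNS (asparagine synthetase), another classical ATF4 target, was at 3.89 and 4.35 FPKM in curcumin-treated SW480 cells, against 3.85 and 4.13 FPKM in controls, and its log2 fold change was 0.04 in SW480 and 0.05 in HCT116 cells. The stress list thus had larger median differences than the synthetases, with ASNS near 0. Of the interferon gamma list, 2 of 8 genes were tested and none passed in any of the 4 comparisons (0 at an unadjusted p < 0.05). Of 11 synthetase partners and tRNA handling genes, 11 in SW480 and 7 in HCT116 cells were positive with curcumin (medians 0.08 and 0.03). Both curcumin libraries were above both controls in 9 and 4 of 11, against 18.5% and 18.3% of all genes. Of 3 tested cytosolic elongation factors, 1 and 3 were positive (medians -0.07 and 0.12). Of 12 tested mitochondrial tRNA and translation factors, 6 and 9 were positive (medians 0.003 and 0.07). None of these genes passed. Of 72 tested mitochondrial ribosome proteins, 0 passed with curcumin in either line. In SW480 cells 46 were positive and in HCT116 cells 56, with medians of 0.02 and 0.10. At an unadjusted p < 0.05, 4 passed in SW480 cells, all upward, against 12.2% of all genes in either direction and 4.88% upward. In HCT116 cells 9 passed, all upward, against 11.8% of all genes in either direction and 5.96% upward.

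**Figure D3:**
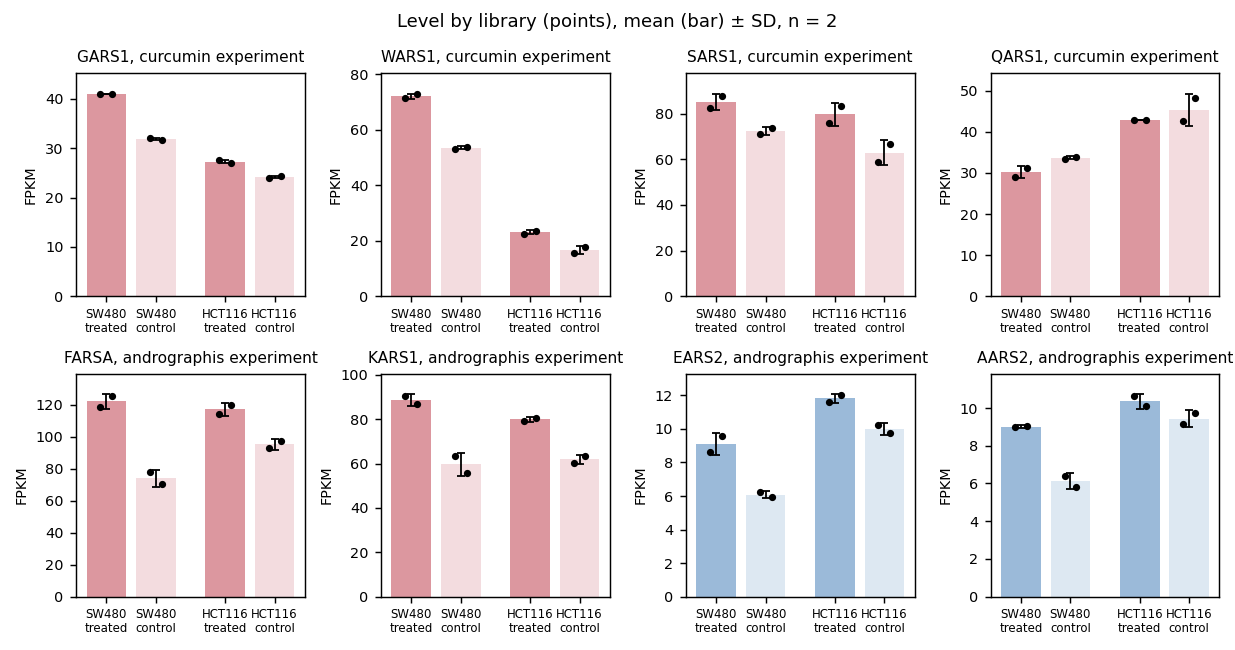
FPKM (y axis, from 0) of 4 cytosolic genes in the curcumin experiment and of 2 cytosolic (red) and 2 mitochondrial (blue) genes in the andrographis experiment, with each library as a point and the mean ± SD (n = 2) as a bar, treated left of control in each line. GARS1 and WARS1 lie above controls in both lines with curcumin and QARS1 does not, while FARSA reaches 119 and 125 FPKM in andrographis-treated SW480 cells, against 77.7 and 70.2 FPKM in controls.

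Andrographis gave a different picture, in which single genes of both classes rose in SW480 cells and the classes did not part in that line. FARSA, KARS1, AARS2 and EARS2 passed the adjusted threshold in SW480 cells, all upward. FARSA was at 119 and 125 FPKM with andrographis, against 77.7 and 70.2 FPKM in controls (log2 fold change 0.72 ± 0.11 SE, adjusted p = 0.0203), a 1.65-fold difference. KARS1 was at 90.6 and 86.6 FPKM with andrographis, against 63.3 and 55.9 FPKM in controls (0.57 ± 0.11 SE, adjusted p = 0.0343). In both genes the lower andrographis library was well above the higher control. EARS2, the mitochondrial glutamyl enzyme, was at 8.64 and 9.59 FPKM with andrographis, against 6.22 and 5.95 FPKM in controls (0.51 ± 0.10 SE, adjusted p = 0.0345). AARS2 was at 8.97 and 9.07 FPKM with andrographis, against 6.42 and 5.81 FPKM in controls (0.50 ± 0.10 SE, adjusted p = 0.0374). The windows of FARSA, KARS1 and EARS2 hold no match to the C/EBP-ATF element, no window was given for AARS2, and FARSA and KARS1 are not among the listed ATF4 targets.

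The windows of KARS1 and EARS2 hold other motifs that were searched, and they are printed because these genes rose. This choice followed the outcome, and other holders did not all rise with andrographis. For the antioxidant response element, log2 fold changes in SW480 and HCT116 cells were -0.25 and -0.05 in TARS1 and 0.02 and -0.19 in WARS1. They were 0.15 and -0.04 in GARS1, -0.07 and 0.26 in NARS2 and 0.01 and 0.10 in RARS2. For the E-box they were -0.04 and -0.08 in IARS1, 0.36 and -0.23 in CARS2 and 0.35 and 0.33 in MARS2. The antioxidant response element of KARS1 began at -153. The E-box of EARS2 began at 11 from the upstream and at -15 from the downstream of its 2 annotated starts. MARS2 was above both controls in both lines with andrographis, without passing the adjusted threshold. It holds 2 overlapping matches to the nuclear respiratory factor 1 core, from -27 on. The motif named for each gene is in capitals, while the E-box of MARS2, which lies in the same stretch, is left in lower case:
KARS1, chr16:75647785-75647843, minus strand: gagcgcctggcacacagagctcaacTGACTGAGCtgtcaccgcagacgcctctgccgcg
EARS2, chr16:23557346-23557390, minus strand: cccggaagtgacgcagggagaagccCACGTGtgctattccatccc
MARS2, chr2:197705317-197705376, plus strand: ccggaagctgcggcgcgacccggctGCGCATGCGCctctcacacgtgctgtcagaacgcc

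Of the cytosolic class in andrographis-treated SW480 cells, 12 of 18 genes had a positive log2 fold change, with a median of 0.13 against -0.004 over all genes tested. The adjusted threshold was passed by 2 of 18, both upward, against 7.28% of all genes in either direction and 3.08% upward. The threshold of the methods was passed by 2 of 18, against 11.8% of all genes. Both andrographis libraries were above both controls in 7 of 18, against 21.1% of all genes, and both below in 2 of 18, against 23.2%. With 18 genes, 2 calls are too few to set the class apart from all genes. SARS1 was at 102 and 76.4 FPKM with andrographis, against 106 and 105 FPKM in controls (-0.26 ± 0.15 SE, adjusted p = 0.329). TARS1, the cytosolic threonyl enzyme, was at 82.1 and 97.1 FPKM with andrographis, against 91.5 and 124 FPKM in controls (-0.25 ± 0.17 SE, adjusted p = 0.401). Of the mitochondrial class, 12 of 15 were positive, with a median of 0.14. The adjusted threshold was passed by 2 of 15, both upward, against the same 7.28% and 3.08% of all genes, and the threshold of the methods by 1 of 15. Both andrographis libraries were above both controls in 5 of 15 and below in 0 of 15, against 21.1% and 23.2% of all genes. At an unadjusted p < 0.05, 4 of 18 cytosolic and 4 of 15 mitochondrial genes passed, all upward, against 26.2% of all genes in either direction and 12.3% upward. At the low end, IARS2 was at 34.4 and 18.6 FPKM with andrographis, against 31.1 and 29.7 FPKM in controls, and NARS2, the asparaginyl enzyme, was at 9.06 and 8.27 FPKM, against 8.90 and 9.40 FPKM. The IARS2 libraries fell on both sides of the controls, and its sign turned to 0.17 without andrographis library 2.

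These calls rest on libraries that differ from each other. Between the 2 andrographis libraries of SW480 cells the synthetases differed by a median of 0.29 on the log2 scale, and between the 2 controls by 0.18, against 0.05 and 0.07 in HCT116 cells. Without SW480 control library 2, 0 cytosolic and 0 mitochondrial genes passed, and without SW480 control library 1, 2 cytosolic and 0 mitochondrial genes passed. Without andrographis library 1, 5 cytosolic genes (3 up and 2 down) and 6 mitochondrial genes (5 up and 1 down) passed, and without andrographis library 2, 3 and 1 genes. With no filter on low values 1 cytosolic and 0 mitochondrial genes passed. The share of all genes passing was not counted in these fits. The counts are therefore not read as a result about the synthetases. In the same cells the epithelial markers KRT8, KRT18 and CDH1 fell, CDH1 to 4.35 and 2.75 FPKM with andrographis, against 8.97 and 8.75 FPKM in controls (adjusted p = 0.0172), and their part in the result was not tested.

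In HCT116 cells treated with andrographis, none of the 33 genes passed the adjusted threshold, against 6.82% of all genes, and none passed the threshold of the methods, against 9.19%. At an unadjusted p < 0.05, 5 of 18 cytosolic genes (4 up and 1 down) and 2 of 15 mitochondrial genes (both up) passed, against 23.7% of all genes in either direction and 10.3% upward. Of the cytosolic genes, 8 of 18 were positive, with a median of -0.03 against -0.02 over all genes tested. Both andrographis libraries were above both controls in 7 of 18 cytosolic genes, against 34.0% of all genes, and below in 7 of 18, against 38.5%. Both shares were near those of all genes. FARSB was at 25.4 and 25.1 FPKM with andrographis, against 18.6 and 17.8 FPKM in controls (log2 fold change 0.45 ± 0.13 SE, adjusted p = 0.0953). RARS1, the cytosolic arginyl enzyme, was at 80.3 and 83.3 FPKM with andrographis, against 64.2 and 57.9 FPKM in controls (0.42 ± 0.18 SE, adjusted p = 0.227). QARS1 was at 69.7 and 66.6 FPKM with andrographis, against 89.8 and 92.0 FPKM in controls (-0.41 ± 0.12 SE, adjusted p = 0.0932). These 3 genes had groups that did not overlap. CARS1 was at 0.590 and 2.47 FPKM with andrographis, against 0.753 and 6.38 FPKM in controls (-0.61 ± 0.73 SE, adjusted p = 0.698). Its libraries varied more within a group than between groups. In the same cells the epithelial marker KRT19 (0.80, adjusted p = 0.0333) and the stromal marker ACTA2 (0.75, adjusted p = 0.0167) rose. ACTA2 was at 8.49 and 7.55 FPKM with andrographis, against 4.51 and 4.23 FPKM in controls. Most epithelial markers went the other way, with 4 of 6 tested negative and a median of -0.09. The other tested stromal or endothelial marker had a log2 fold change of -0.25. The part of these markers in the result was not tested.

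Of the mitochondrial genes in andrographis-treated HCT116 cells, 10 of 15 were positive, with a median of 0.10. Both andrographis libraries were above both controls in 8 of 15, against 34.0% of all genes, and below in 4 of 15, against 38.5%. YARS2, the tyrosyl enzyme, was at 18.1 and 19.5 FPKM with andrographis, against 14.9 and 14.2 FPKM in controls (0.34 ± 0.13 SE, adjusted p = 0.173). MARS2 was at 10.8 and 12.6 FPKM with andrographis, against 9.89 and 8.29 FPKM in controls (0.33 ± 0.18 SE, adjusted p = 0.33). CARS2 was at 7.23 and 7.09 FPKM with andrographis, against 8.38 and 8.71 FPKM in controls (-0.23 ± 0.10 SE, adjusted p = 0.213). WARS2, the mitochondrial tryptophanyl enzyme, was at 5.39 and 5.02 FPKM, against 6.11 and 6.33 FPKM in controls (-0.22 ± 0.23 SE, adjusted p = 0.657). All 4 genes had groups that did not overlap, without passing the test. Most genes tested did not overlap in this comparison either (3528 of 12811 overlapped).

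The cytosolic minus mitochondrial difference of median log2 fold changes was -0.01 in SW480 and -0.13 in HCT116 cells with andrographis. The class difference taken for each library had an SD within groups of 0.05 in both lines. The SW480 value lay within that spread. Without HCT116 control library 2 the HCT116 value was -0.04, so that its size rests on that library. Cytosolic sums were 1241 ± 143 FPKM with andrographis and 1138 ± 43.2 FPKM in control SW480 cells, and 976 ± 3.08 and 957 ± 1.46 FPKM in HCT116 cells. Mitochondrial sums were 172 ± 11.8 FPKM with andrographis and 154 ± 4.31 FPKM in control SW480 cells, and 208 ± 4.43 and 191 ± 7.54 FPKM in HCT116 cells (SD, n = 2 each). The cytosolic genes listed as ATF4 targets had medians near 0 with andrographis, 0.03 in SW480 (7 of 12 positive) and -0.05 in HCT116 cells (3 of 12 positive). The 6 genes not so listed had medians of 0.32 and 0.34, with 5 of 6 positive in each line. The 7 genes that hold the printed element had medians of -0.03 and -0.04, and the 9 without it 0.23 and 0.29. Curcumin and andrographis were set against separate controls in separate experiments, and the difference between the compounds was not tested.

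Other genes of the translation apparatus were counted for the same comparison. Of 71 tested mitochondrial ribosome proteins, 55 in SW480 and 64 in HCT116 cells were positive with andrographis, each with a median of 0.19. Of these, 7 of 71 passed the adjusted threshold upward in SW480 cells, against 3.08% of all genes, and 2 of 71 in HCT116 cells, near the 2.87% of all genes. MRPL50, a protein of the large subunit, rose to 18.6 and 16.0 FPKM in andrographis-treated SW480 cells, against 10.2 and 9.17 FPKM in controls (0.77 ± 0.11 SE, adjusted p = 0.0172). MRPL36, also of the large subunit, rose in both lines, to 114 and 126 FPKM in SW480 cells, against 77.9 and 66.3 FPKM in controls (adjusted p = 0.0238), and to 60.2 and 64.8 FPKM in HCT116 cells, against 42.0 and 42.9 FPKM (adjusted p = 0.0481). Of 3 tested cytosolic elongation factors, 3 were positive in SW480 cells, with a median of 0.37, and 0 in HCT116 cells, with a median of -0.20. EEF2, the cytosolic translocation factor, rose to 688 and 723 FPKM in andrographis-treated SW480 cells, against 457 and 391 FPKM in controls (0.74 ± 0.15 SE, adjusted p = 0.0393), and none passed in HCT116 cells. Of the stress list, 9 of 18 genes in SW480 and 8 of 18 in HCT116 cells were positive with andrographis. By the adjusted threshold 1 rose and 1 fell in SW480 cells, near the 7.28% of all genes in either direction. In HCT116 cells 2 rose and 1 fell, against 6.82% of all genes. SLC7A11, the cystine transporter, rose in both lines, to 23.7 and 31.7 FPKM in SW480 cells, against 6.73 and 7.87 FPKM in controls (1.78 ± 0.15 SE, adjusted p = 0.00441), and to 23.1 and 22.4 FPKM in HCT116 cells, against 8.70 and 8.21 FPKM (1.33 ± 0.15 SE, adjusted p = 0.00672). PHGDH, an enzyme of serine synthesis, fell to 19.9 and 20.3 FPKM in andrographis-treated HCT116 cells, against 52.9 and 49.9 FPKM in controls (-1.31 ± 0.17 SE, adjusted p = 0.0104). The stress transcription factor ATF3 rose in HCT116 cells (0.96 ± 0.17 SE, adjusted p = 0.0263), and SESN2, a stress-induced sestrin, fell in SW480 cells (-0.69 ± 0.13 SE, adjusted p = 0.0317). ATF4 had log2 fold changes of 0.34 and -0.04, DDIT3 of -0.55 and 0.36, and TRIB3 of -0.61 and -0.35 in SW480 and HCT116 cells, none of them passing.

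Whether a gene responded differently in SW480 and HCT116 cells was tested by the interaction contrast. None of the 32 genes passed with curcumin (smallest adjusted p = 0.501), where 0.0% of all genes passed, and 1 cytosolic and 1 mitochondrial gene had an unadjusted p < 0.05, against 8.21% of all genes. None of the 33 genes passed with andrographis (smallest adjusted p = 0.0836, for CARS2), against 2.36% of all genes, and 3 cytosolic and 2 mitochondrial genes had an unadjusted p < 0.05, against 20.0% of all genes. Calls made in SW480 and not in HCT116 cells are therefore not shown to differ between the lines. Without SW480 andrographis library 1, CARS2, IARS2 and SARS2 passed. The share of all genes passing in that fit was not counted. As a description, the log2 fold changes of 32 genes in SW480 and HCT116 cells had a Pearson correlation of 0.68 with curcumin and 0.35 with andrographis. Within pairs for the same amino acid, the cytosolic gene had the larger log2 fold change in 9 of 11 pairs in SW480 and 10 of 11 in HCT116 cells with curcumin, and in 4 of 12 and 3 of 12 pairs with andrographis. The tryptophanyl pair had the widest gap with curcumin, with a difference of 0.39 in SW480 and 0.47 in HCT116 cells. In the histidyl pair, whose starts are 84 bases apart, HARS1 and HARS2 had log2 fold changes of 0.31 and -0.01 in andrographis-treated HCT116 cells and of 0.11 and -0.001 in curcumin-treated HCT116 cells. In SW480 cells they were 0.08 and 0.04 with curcumin and -0.15 and -0.05 with andrographis, and none of these passed.

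More synthetases passed between the 2 lines than between treated and control cells. In control cells, SW480 minus HCT116, 12 of 17 cytosolic genes passed the adjusted threshold in the curcumin experiment (5 higher and 7 lower in SW480) and 9 of 15 mitochondrial genes did (7 higher and 2 lower), against 62.7% of all genes. In the andrographis experiment 9 of 18 cytosolic (6 higher and 3 lower) and 9 of 15 mitochondrial genes (2 higher and 7 lower) passed, against 60.7%. These shares were near those of all genes. WARS1 was at 53.2 and 53.8 FPKM in control SW480 cells, against 15.6 and 17.7 FPKM in control HCT116 cells, in the curcumin experiment (log2 difference 1.63 ± 0.07 SE, adjusted p = 3.8e-06), and at 132 and 105 FPKM, against 26.0 and 28.3 FPKM, in the andrographis experiment (2.08 ± 0.17 SE, adjusted p = 5.76e-05). NARS1, the cytosolic asparaginyl enzyme, was at 33.7 and 34.5 FPKM in control SW480 cells, against 81.4 and 83.1 FPKM in control HCT116 cells, in the curcumin experiment (-1.25 ± 0.05 SE, adjusted p = 3.16e-06), and at 27.6 and 24.2 FPKM, against 52.6 and 51.8 FPKM, in the andrographis experiment (-0.99 ± 0.12 SE, adjusted p = 0.000346). WARS1 was thus the higher in SW480 cells and NARS1 the lower, with no overlap in either experiment.

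GARS1 also passed as higher in SW480 cells in both experiments (log2 difference 0.39 and 1.08), as did the mitochondrial RARS2 (0.49 and 0.71) and NARS2 (0.57 and 0.36). QARS1 (-0.42 and -1.58), EARS2 (-0.61 and -0.63) and HARS2 (-0.41 and -0.68) passed as lower in SW480 cells in both. Of 32 genes tested in both experiments, 12 passed in both, 9 of them with the same sign (5 higher and 4 lower in SW480) and 3 with opposite signs. The share of all genes passing in both, or turning sign, was not counted. In single experiments 62.7% (curcumin) and 60.7% (andrographis) of all genes passed, so these counts are not shown to be particular to synthetases. YARS1, the cytosolic tyrosyl enzyme, was 0.23 lower in SW480 in the curcumin and 0.68 higher in the andrographis experiment, while AARS2 and TARS2 were higher in the curcumin (0.30 and 0.20) and lower in the andrographis experiment (-0.55 and -0.76). The line differences of the 2 experiments had a Pearson correlation of 0.69 and a Spearman correlation of 0.58 over these 32 genes, given as a description. The median over all genes tested was 0.01 in the curcumin and -0.18 in the andrographis experiment, so that the mitochondrial median of -0.30 in the andrographis experiment is to be read against -0.18.

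**Figure D4:**
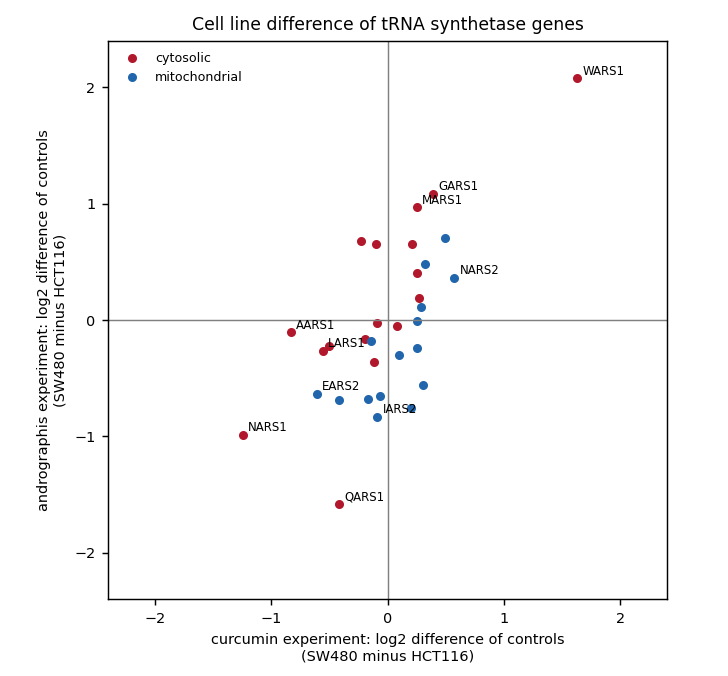
Log2 difference of control cells, SW480 minus HCT116, in the curcumin experiment (x axis) and the andrographis experiment (y axis) for the 32 synthetase genes tested in both, cytosolic in red and mitochondrial in blue. WARS1 lies farthest to the upper right (1.63 and 2.08), and NARS1 (-1.25 and -0.99) and QARS1 (-0.42 and -1.58) lie to the lower left.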

How the data were processed

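RNA was extracted after 16 h, and libraries were made with a TruSeq RNA kit. The authors deposited log2 values per gene and library, with names of STAR 2.7.8a, Partek 10.0.22.0121, DESeq2 and the builds GRCh38 (human) and mm10 (mouse), with no role given, in the submitters' processing notes; the counter, annotation and unit are not given in the sources used here. The values were read as log2(FPKM + 1), since low microRNA genes took whole multiples of 1 step per gene (97.1% to 98.6% of values in the curcumin and 100.0% in the andrographis libraries, tolerance 0.05), and no count test was run. FPKM is relative to the library total, so shares of other genes move it.

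Each experiment was fitted with limma 3.58.1 in R 4.3.3 (lmFit, eBayes with trend, 4 group means, no block, 4 residual degrees of freedom) on genes reaching 1 FPKM in 2 or more libraries, with Benjamini-Hochberg adjustment over all genes tested. A fold change on the log2(FPKM + 1) scale understates that of low genes. Also tried were scaling of libraries to a common median, a pseudocount of 0.1, no filter, a replicate block and each library left out. The procedure was tested on simulated data. The members and lists were chosen with earlier results of these data known. Library values are given for genes passing the adjusted threshold and for the 2 largest rises and falls of each class. The contrast between control cells of the lines was added after the values were seen. Promoter windows were matched by symbol.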

Additional observations from a re-analysis of the deposited data

How the results depend on the processing

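Each group had 2 libraries. In the curcumin experiment FARS2 and SARS2 were below 2 FPKM in every library. Low depth can limit such genes most, and its effect was not tested. In curcumin-treated SW480 cells the count of 1 cytosolic gene passing became 0 with libraries scaled to the same median, a pseudocount of 0.1, no filter and the replicate block, where GARS1 had adjusted p = 0.0623, 0.0609, 0.0582 and 0.0505, and 0 to 0 with any library left out (adjusted p = 0.216 to 0.453), while its log2 fold change was 0.35 to 0.38 in all of these. In andrographis-treated SW480 cells the 2 cytosolic genes became 1 with no filter and 0 to 5 with a library left out, and the 2 mitochondrial genes became 0 with no filter, 1 with the replicate block and 0 to 6 with a library left out. With libraries scaled to the same median the cytosolic count was 3. The share of all genes passing was not counted for these settings. The cytosolic minus mitochondrial difference was 0.14 to 0.20 (curcumin, SW480), 0.10 to 0.14 (curcumin, HCT116), -0.03 to -0.001 (andrographis, SW480) and -0.16 to -0.037 (andrographis, HCT116) with a library left out, so its sign did not turn in these. The interaction count with andrographis was 0 to 3. With each library left out in turn, the log2 fold change turned sign in FARSA with curcumin in SW480 (-0.27 to 0.053, positive without curcumin library 1) and HCT116 cells (-0.17 to 0.028), QARS1 with curcumin in HCT116 cells (-0.16 to 0.012), CARS1 with andrographis in HCT116 cells (-1.65 to 0.42, these 3 positive without control library 2) and IARS2 with andrographis in SW480 cells (-0.68 to 0.17, positive without andrographis library 2). Without SW480 control library 2, FARSA, KARS1, EARS2 and AARS2 had adjusted p = 0.0705, 0.0895, 0.0895 and 0.0952. Of the alternatives for genes given by library, 230 had the same direction and side of the threshold, 19 no longer passed, 2 newly passed and 5 turned. The cause of these changes was not tested.

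Libraries share replicate numbers, but same-numbered libraries did not deviate together in every pair of groups: correlations of deviations ran from 0.03 to 0.20 in the curcumin and from -0.03 to 0.11 in the andrographis experiment, except 0.56 between andrographis-treated and control SW480 cells. With the replicate block, AARS2 had adjusted p = 0.0501 in andrographis-treated SW480 cells, and beside GARS1 and AARS2 no other gene given by library lost its call. The block was 1 term shared by all 4 groups of an experiment, so it cannot show how calls fare when SW480 libraries alone are paired.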
